A study of Homo sapiens with 3 samples.

Results

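QKI, ADAR, DHX9, ILF2, MBNL1 and ESRP1 encode RNA-binding proteins that raise or lower the formation of circular RNA. They were taken by gene symbol from a list chosen with earlier results of these data known. All 6 were found among the 15625 genes of the table. Each was measured as gene-level messenger RNA in HCT116, a human colorectal cancer cell line. There were 2 libraries of cells that had received shRNA against circRAPGEF5, a circular RNA made from the gene RAPGEF5 (sh_circRAPGEF5_1 and sh_circRAPGEF5_2). They were set against 1 library of cells that had received a control shRNA (sh_control). All 3 libraries carry the same genotype label, MT, whose meaning is not given. The cells were transfected with a purchased shRNA system and collected at 36 or 48 h. Which library had which time is not given, so harvest time and shRNA cannot be told apart. The labels do not say whether both knockdown libraries come from separate hairpins or separate cultures, so the spread between them may be technical.

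A circular RNA arises by back-splicing, in which a downstream splice donor is joined to an upstream acceptor of the same transcript. Back-splicing is favoured when the introns on both sides are brought together. This happens either by inverted repeats that pair into double-stranded RNA or by proteins that bind the introns. QKI, MBNL1 and ESRP1 are splicing factors of the second kind, ADAR and DHX9 act on paired RNA and lower circle formation, and ILF2 belongs to a family of proteins that work in complexes on double-stranded RNA. The role of MBNL1 in circle formation is best known for muscleblind, its Drosophila homologue. Libraries of polyadenylated RNA do not capture circles, so the values below are levels of the regulators' messenger RNA and not of circular RNA or protein.

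Expression is given as FPKM, the number of fragments per kilobase of a gene relative to the depth of its library, which allows levels of different genes to be compared. Differences are on the log2(FPKM + 1) scale, each knockdown library minus the control. The test was limma on all 11216 genes with a mean FPKM of at least 1, called at 0.05 after Benjamini-Hochberg adjustment. The smallest whole reads behind the values summed to between 14632390 and 15758794 per library. With 1 control library the control has no SD, and an exact permutation of 1 against 2 libraries has 3 arrangements and cannot go below p = 0.33. The host gene RAPGEF5 was at 1.33 and 2.73 FPKM in sh_circRAPGEF5_1 and sh_circRAPGEF5_2, against 1.98 FPKM in sh_control. These gene-level values lay on both sides of the control and do not check the knockdown of the circle.

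None of the 6 regulators passed limma's threshold, and 1 of 6, ESRP1, had an unadjusted p under 0.05. In all, 0.0178% of genes tested passed over both directions, and 7.07% had an unadjusted p under 0.05. ESRP1 was 2-fold lower in both knockdown libraries, at almost the same level in each. QKI was higher and ADAR lower in both, by unequal amounts. MBNL1 and DHX9 differed between the knockdown libraries, and ILF2 was level in all 3 libraries.

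Gene positions are those of GENCODE 29 on GRCh38. ILF2 (chromosome 1, 153661788 to 153671048, minus strand), ADAR (chromosome 1, 154582057 to 154628013, minus strand) and DHX9 (chromosome 1, 182839369 to 182887751, plus strand) share chromosome 1. MBNL1 lies on chromosome 3 (152243828 to 152465780, plus strand) and QKI on chromosome 6 (163414000 to 163578596, plus strand). An exon of ILF2 overlaps SNAPIN on the other strand, and exons of MBNL1 overlap MBNL1-AS1 and AC026347.1 on the other strand. The strand setting of the counting is not given in the sources used here, so reads of these overlapping genes could not be separated. On the same strand, the span of ESRP1 overlaps RF00017 and AC108860.1, and that of MBNL1 overlaps RF00019. Whether these same-strand overlaps reach an exon is not reported here. GENCODE lists the processed pseudogenes ILF2P1 and ILF2P2 for ILF2 and DHX9P1 for DHX9, which adds uncertainty to their counts.

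RefSeq promoter windows ran from 250 bases before to 50 bases after an annotated start (GRCh38.p14). They were read for 4 of the 6 genes, ADAR, DHX9, ILF2 and MBNL1. Windows of the remaining genes are not reported here, which does not mean that none is annotated. Windows are shown for ADAR at its upstream and downstream annotated starts, because ADAR was lower in both knockdown libraries. ADAR is also known to have several promoters, one of them inducible by interferon. DHX9 and ILF2, on the same chromosome, are shown beside it because their levels stayed nearest to the control. Capitals mark matches on either strand to the CCAAT box (CCAAT), the GC box (GGGCGG), the E-box (CACGTG), the ETS core (CCGGAAG) and the AP-1 site (TGANTCA).
ADAR upstream start, chr1:154627948-154628247, minus strand: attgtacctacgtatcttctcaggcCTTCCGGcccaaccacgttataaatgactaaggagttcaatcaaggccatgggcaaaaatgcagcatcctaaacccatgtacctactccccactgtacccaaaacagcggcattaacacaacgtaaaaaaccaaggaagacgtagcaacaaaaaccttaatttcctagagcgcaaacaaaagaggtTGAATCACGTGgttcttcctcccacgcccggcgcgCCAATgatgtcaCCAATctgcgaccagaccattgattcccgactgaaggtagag
ADAR downstream start, chr1:154608748-154609047, minus strand: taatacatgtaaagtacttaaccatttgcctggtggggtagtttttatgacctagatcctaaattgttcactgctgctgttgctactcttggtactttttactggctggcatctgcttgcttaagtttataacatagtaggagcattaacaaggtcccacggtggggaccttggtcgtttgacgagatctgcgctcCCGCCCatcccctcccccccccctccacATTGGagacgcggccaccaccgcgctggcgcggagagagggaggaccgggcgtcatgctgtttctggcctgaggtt
DHX9, chr1:182839097-182839396, plus strand: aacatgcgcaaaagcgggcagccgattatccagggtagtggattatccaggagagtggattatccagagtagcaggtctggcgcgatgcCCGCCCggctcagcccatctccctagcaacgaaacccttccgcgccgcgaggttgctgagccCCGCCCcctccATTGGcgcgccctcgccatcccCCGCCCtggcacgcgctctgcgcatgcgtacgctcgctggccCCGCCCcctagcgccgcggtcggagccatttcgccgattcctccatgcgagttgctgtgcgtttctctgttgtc
ILF2, chr1:153670944-153671243, minus strand: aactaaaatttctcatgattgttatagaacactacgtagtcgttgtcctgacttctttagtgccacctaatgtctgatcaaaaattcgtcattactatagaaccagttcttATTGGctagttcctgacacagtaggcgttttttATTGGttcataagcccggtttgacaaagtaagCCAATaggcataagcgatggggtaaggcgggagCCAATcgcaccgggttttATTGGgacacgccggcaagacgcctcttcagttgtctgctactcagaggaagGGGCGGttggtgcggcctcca

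The upstream ADAR window held 2 CCAAT boxes, 1 E-box, 1 ETS core and 1 AP-1 site, and the E-box and the AP-1 site overlap. A second upstream ADAR window, chr1:154627922-154628221, not shown, held the same matches without the ETS core. The downstream ADAR window held 1 CCAAT box and 1 GC box. The DHX9 window held 1 CCAAT box and 4 GC boxes, and the ILF2 window held 5 CCAAT boxes and 1 GC box. Of 35116 RefSeq windows of the same length, 34.6% held a CCAAT box, 45.0% a GC box, 7.26% an E-box, 10.3% an ETS core and 7.71% an AP-1 site. The core of the interferon-stimulated response element (GAAANNGAA) was not among the letters of the 4 windows shown and was in 8.11% of all windows. These are matches of letters in a window, not binding sites.

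In order of level, ILF2 was the most abundant of the 6 in every library and QKI the least. ILF2 averaged 221 ± 8.08 FPKM in the knockdown libraries (SD, n = 2), against 219.6 FPKM in the control. DHX9 averaged 115 ± 21.9 FPKM in the knockdown libraries (SD, n = 2), against 102 FPKM in the control. ADAR, MBNL1 and ESRP1 followed, with knockdown means of 53.3 ± 16.9, 43.7 ± 19.1 and 31.1 ± 0.191 FPKM (SD, n = 2), against 87.4, 36.3 and 64.9 FPKM in the control. The gap between ADAR and MBNL1 and that between MBNL1 and ESRP1 were within the spread of the knockdown libraries, while the lowest DHX9 value, 99.5 FPKM in sh_circRAPGEF5_1, lay above every ADAR value. QKI averaged 3.10 ± 1.23 FPKM in the knockdown libraries (SD, n = 2), against 1.33 FPKM in the control. Among all genes of the table, QKI stood at percentile 37.8 in sh_circRAPGEF5_1 and 45.0 in sh_circRAPGEF5_2, against 29.4 in sh_control, while ILF2 stood between 98.7 and 98.9 in the 3 libraries.

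**Figure D1:**
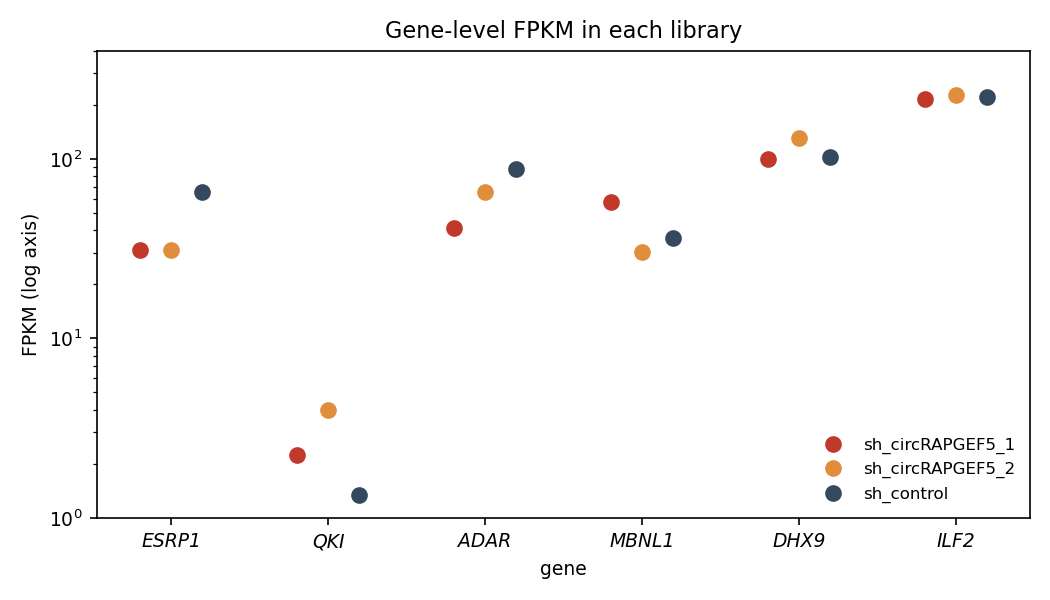
FPKM (log axis) of each regulator in sh_circRAPGEF5_1, sh_circRAPGEF5_2 and sh_control, 1 point per library. ESRP1 is lower in both knockdown libraries (31.2 and 31.0 FPKM) than in the control (64.9 FPKM), while ILF2 is level in all 3.

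ESRP1 (Entrez 54845, chromosome 8, 94641074 to 94707466, plus strand), an epithelial splicing factor that keeps epithelial exon choices and has been reported to favour circle formation, was at 31.2 FPKM in sh_circRAPGEF5_1 and 31.0 FPKM in sh_circRAPGEF5_2, against 64.9 FPKM in sh_control. Both knockdown libraries were low, and their values almost coincide. The differences from the control were -1.03 and -1.04, with a mean of -1.04 ± 0.39 (SE), an unadjusted p of 0.0209 and a limma adjusted p of 0.623. The interval at 95% of that mean was -1.89 to -0.19, before any adjustment for the number of genes. ESRP1 was the only one of the 6 that was at least 1.5-fold from the control in both libraries, where 12.9% of all genes tested were (7.4% lower and 5.52% higher). At least 2-fold lower in both were 1.7% of genes tested, ESRP1 among them. Of all genes tested, 3.28% had a lower mean log2 fold change than ESRP1. ESRP1 differed by 0.01 between the knockdown libraries, and 1.72% of genes tested differed by less. It was lower in both libraries in 10 of 10 settings of the analysis, with a mean between -1.17 and -0.95 and an adjusted p between 0.54 and 0.924. Of these settings, only median-ratio rescaling and quantile normalization can change the side of the control on which a library lies.

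ESRP2, the paralog with overlapping targets, was at 11.6 and 13.04 FPKM in the knockdown libraries, against 13.4 FPKM in the control. Its differences were -0.18 and -0.03 (limma adjusted p 0.981). ESRP1 exceeded ESRP2 2.68-fold and 2.38-fold in the knockdown libraries, against 4.86-fold in the control. Summed, both genes gave 42.9 and 44.0 FPKM in the knockdown libraries, against 78.3 FPKM in the control. A ratio of genes within a library does not depend on a single scaling factor per library, but quantile normalization can move it.

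Because ESRP1 marks epithelial cells, markers of the cell state are given beside it. Of 7 epithelial markers, 4 were higher and 2 lower in both libraries, and their FPKM summed to 2614 and 3944 in the knockdown libraries, against 2348 in the control. EPCAM, a surface marker of epithelium, was at 169.98 and 191 FPKM, against 176 FPKM in the control. The keratin genes KRT8, KRT18 and KRT19 were higher in both: KRT8 was at 1084 and 1694 FPKM, against 1031 FPKM, KRT18 at 652 and 885 FPKM, against 478 FPKM, and KRT19 at 622 and 1079 FPKM, against 563 FPKM. CLDN7, a tight junction protein, was at 62.6 and 63.4 FPKM, against 60.7 FPKM. CDH1, which encodes E-cadherin, was at 20.3 and 26.7 FPKM, against 33.1 FPKM, and GRHL2, an activator of epithelial genes, at 3.32 and 4.64 FPKM, against 6.28 FPKM. The 6 mesenchymal markers summed to 3.08 and 2.80 FPKM in the knockdown libraries, against 4.66 FPKM in the control, with 1 of 6 higher in both, 3 lower in both and 2 on opposite sides. VIM, the only one that passed the filter, was at 1.21 and 1.24 FPKM, against 2.82 FPKM. ZEB1, a repressor of epithelial genes, was at 1.13 and 0.815 FPKM, against 0.666 FPKM. CDH2, N-cadherin, was listed at 0 in both knockdown libraries and at 0.0134 FPKM in the control, and ZEB2 was at 0 and 0.0185 FPKM, against 0.0132 FPKM. Of 5 fibroblast markers 2 were in the table and COL1A1 alone passed the filter, at 4.64 and 8.38 FPKM, against 13.4 FPKM, and the 2 summed to 4.64 and 8.44 FPKM, against 14.0 FPKM. Of 5 leukocyte markers 4 were in the table and CD68 alone passed the filter, at 3.55 and 7.50 FPKM, against 1.30 FPKM (unadjusted p 0.0128, limma adjusted p 0.582), while PTPRC, which marks all leukocytes, was at 0 and 0.00901 FPKM, against 0 in the control. Of 4 endothelial markers 2 were in the table and summed to 0.18 and 0.0453 FPKM, against 0.216 FPKM. None of these markers passed limma's threshold, and their part in the levels of ESRP1 and the other regulators was not tested. In bulk RNA, fewer cells that express a gene and less of its RNA per cell cannot be told apart.

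QKI (Entrez 9444), a STAR-family protein that binds introns beside circularized exons and raises circle formation in mesenchymal cells, was the least abundant of the 6. It was at 2.23 FPKM in sh_circRAPGEF5_1 and 3.97 FPKM in sh_circRAPGEF5_2, against 1.33 FPKM in sh_control. Both knockdown libraries were above the control, and sh_circRAPGEF5_2 was the higher of the pair. The differences were 0.47 and 1.09, with a mean of 0.78 ± 0.47 (SE) and a limma adjusted p of 0.802. Their gap of 0.62 was larger than that of 75.8% of genes tested. As plain FPKM ratios, which are not damped by the pseudocount, QKI was at 1.67 and 2.98 times the control.

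The reads behind QKI were few, at least 244 and 461 in the knockdown libraries, against 144 in the control. Exact binomial intervals at 95%, which cover counting error only, ran from 1.36 to 2.07 for the ratio in sh_circRAPGEF5_1 and from 2.47 to 3.62 for that in sh_circRAPGEF5_2. These intervals do not overlap, so the gap between the knockdown libraries is larger than counting error. The sign of QKI was positive in both libraries in 9 of 9 settings that kept the gene. Only median-ratio rescaling and quantile normalization among them could have changed it. With a pseudocount of 0.1 and with quantile normalization QKI too was at least 1.5-fold from the control in both libraries. So were 1874 and 1398 of the 11216 genes tested, in that order. ESRP1 exceeded QKI 14.0-fold and 7.80-fold in the knockdown libraries, against 48.7-fold in the control.

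**Figure D2:**
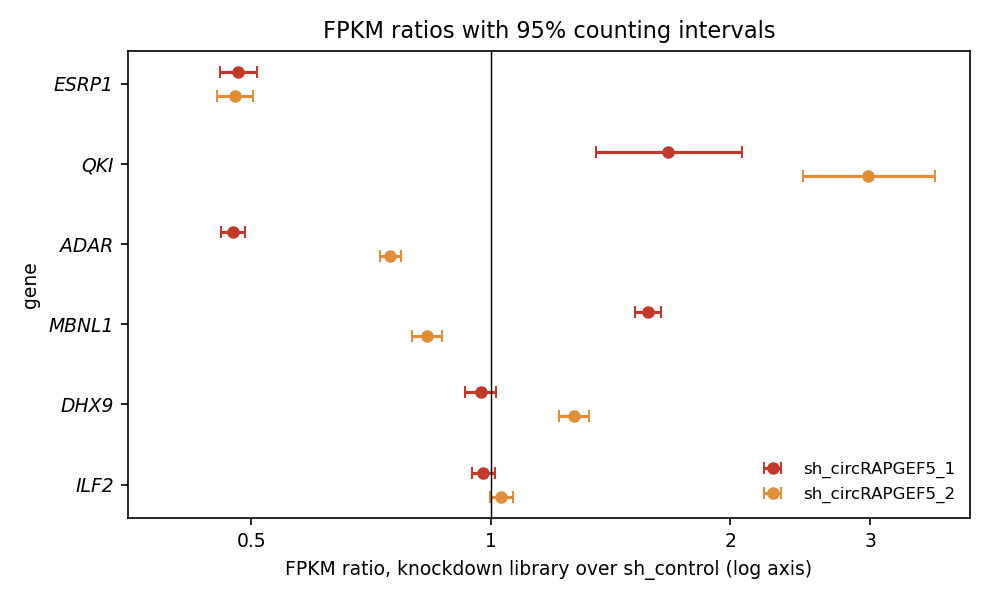
FPKM ratio of each knockdown library over the control (log axis) for each regulator, with exact binomial 95% intervals on the smallest whole reads as bars. The 2 ESRP1 intervals overlap, while the 2 libraries' intervals stand apart for QKI, ADAR, MBNL1 and DHX9.

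ADAR (Entrez 103), the enzyme that converts adenosine to inosine in double-stranded RNA and thereby loosens paired introns, was at 41.4 FPKM in sh_circRAPGEF5_1 and 65.3 FPKM in sh_circRAPGEF5_2, against 87.4 FPKM in sh_control. Both knockdown libraries were below the control, sh_circRAPGEF5_1 the farther. The differences were -1.06 and -0.41, with a mean of -0.74 ± 0.42 (SE) and a limma adjusted p of 0.774. At least 4785 and 8002 reads lay behind the knockdown values, against 9962 in the control. The ratios to the control were 0.474 (0.458 to 0.491) and 0.747 (0.726 to 0.77), so the knockdown libraries differed from each other by more than counting error. ADAR was lower in both libraries in 10 of 10 settings, with a mean between -0.86 and -0.69 and an adjusted p between 0.738 and 0.924. Here too, only median-ratio rescaling and quantile normalization could have changed the side.

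ADARB1, the second catalytically active editing enzyme, was at 1.78 and 1.995 FPKM in the knockdown libraries, against 1.84 FPKM in the control (limma adjusted p 0.997). ADAR exceeded it 23.2-fold and 32.7-fold in the knockdown libraries, against 47.4-fold in the control. ADAR has an interferon-inducible form, and other interferon-stimulated sensors of double-stranded RNA are given beside it. OAS3 was at 9.06 and 6.06 FPKM in the knockdown libraries, against 16.6 FPKM in the control (mean difference -1.07, unadjusted p 0.0313, limma adjusted p 0.643). IFIH1 was at 1.79 and 2.44 FPKM, against 3.58 FPKM, and DDX58, which encodes RIG-I, at 8.44 and 3.20 FPKM, against 6.65 FPKM. EIF2AK2 was at 13.7 and 10.3 FPKM, against 15.6 FPKM. Below the filter were DHX58 (0.0932 and 0.198 FPKM, against 0.496 FPKM), OAS1 (0.112 and 0.288 FPKM, against 0.179 FPKM) and OAS2 (0 and 0.0114 FPKM, against 0.0369 FPKM). A part of interferon in the level of ADAR was not tested. In OAS3, EIF2AK2 and DDX58 sh_circRAPGEF5_2 was the lower knockdown library, and in ADAR and IFIH1 sh_circRAPGEF5_1 was. Below the filter, sh_circRAPGEF5_1 was the lower in DHX58, OAS1 and OAS2. Gene-level values do not separate the forms of ADAR.

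DHX9 (Entrez 1660), a helicase that unwinds paired inverted repeats, was at 99.5 FPKM in sh_circRAPGEF5_1 and 130.4 FPKM in sh_circRAPGEF5_2, against 102 FPKM in sh_control. The first knockdown library was close to the control and the second was above it. The differences were -0.04 and 0.34, with a mean of 0.15 ± 0.40 (SE), a 95% interval of -0.73 to 1.03 and a limma adjusted p of 0.97. At least 3691 and 5131 reads lay behind the knockdown values, against 3753 in the control. The counting interval of the ratio in sh_circRAPGEF5_2 was 1.22 to 1.33, and that in sh_circRAPGEF5_1 was 0.927 to 1.02. DHX9 exceeded ADAR 2.40-fold and 1.997-fold in the knockdown libraries, against 1.17-fold in the control.

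ILF2 (Entrez 3608), known as NF45, was at 215 FPKM in sh_circRAPGEF5_1 and 226 FPKM in sh_circRAPGEF5_2, against 219.6 FPKM in sh_control. The knockdown values lay on both sides of the control and close to it. The differences were -0.03 and 0.04, with a mean of 0.01 ± 0.40 (SE), which turned to -0.16 under quantile normalization, and a limma adjusted p of 0.999. The 95% interval of the mean was -0.86 to 0.87. ZFR and STRBP share its dimerization domain. ZFR was at 26.5 and 30.9 FPKM in the knockdown libraries, against 37.2 FPKM in the control, and STRBP at 5.26 and 6.13 FPKM, against 5.11 FPKM.

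MBNL1 (Entrez 4154), a zinc-finger splicing factor, was the member whose knockdown libraries differed most. It was at 57.2 FPKM in sh_circRAPGEF5_1 and 30.2 FPKM in sh_circRAPGEF5_2, against 36.3 FPKM in sh_control. The first library was above the control and the second below it. The differences were 0.64 and -0.26, with a mean of 0.19 ± 0.45 (SE) and a limma adjusted p of 0.965. Their gap of 0.90 was larger than that of 88.4% of genes tested. The ratios to the control, 1.57 (1.52 to 1.64) and 0.83 (0.795 to 0.867), each lay beyond counting error on its own side, with at least 6995 and 3910 reads, against 4382 in the control.

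MBNL2, its paralog, was at 16.4 and 8.85 FPKM in the knockdown libraries, against 17.2 FPKM in the control, with differences of -0.07 and -0.89 (limma adjusted p 0.88). Like MBNL1, it was higher in sh_circRAPGEF5_1 than in sh_circRAPGEF5_2. MBNL1 exceeded MBNL2 3.49-fold and 3.41-fold in the knockdown libraries, against 2.11-fold in the control, so the ratio of the pair was close in both knockdown libraries although each level was not. MBNL3 was at 0.291 and 0.827 FPKM in the knockdown libraries, against 0.467 FPKM in the control, and was below the filter. Summed, the family gave 73.9 and 39.8 FPKM in the knockdown libraries, against 54.0 FPKM in the control. The order of ESRP1 and MBNL1 was turned in sh_circRAPGEF5_1, with an ESRP1 to MBNL1 ratio of 0.546 there and 1.03 in sh_circRAPGEF5_2, against 1.79 in the control.

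**Figure D3:**
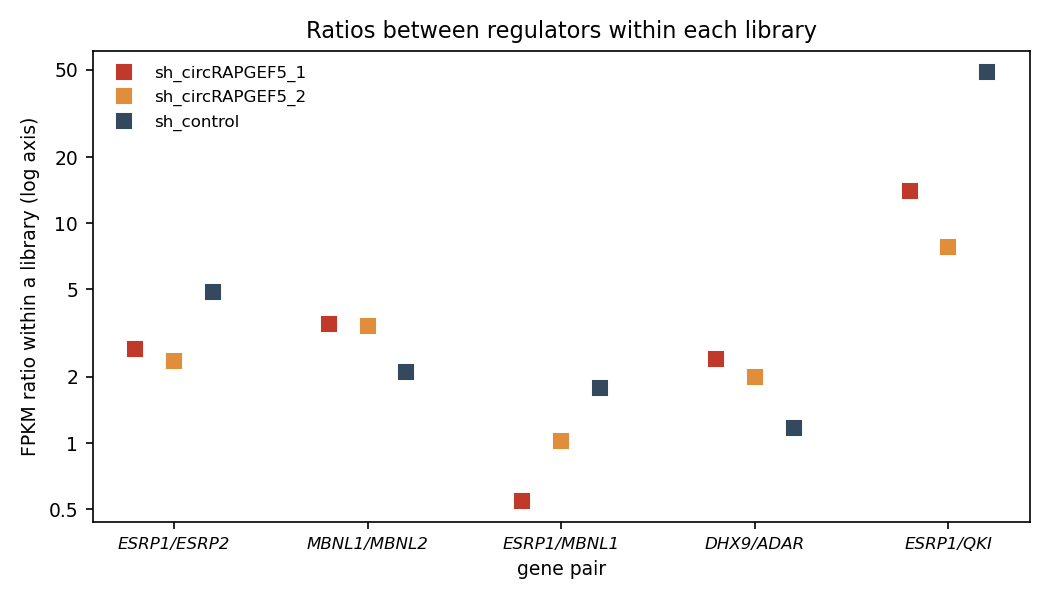
FPKM ratio of gene pairs within each library (log axis), 1 square per library. ESRP1/ESRP2, ESRP1/MBNL1 and ESRP1/QKI are lower in both knockdown libraries than in the control, and MBNL1/MBNL2 (3.49 and 3.41 against 2.11) and DHX9/ADAR are higher. The pairs were chosen with earlier results of these data known. ILF2/DHX9, not drawn, lay on both sides of the control (2.16 and 1.74 against 2.14).

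Of the 6, QKI alone stood above the control in both knockdown libraries, as did 31.7% of all genes tested. ESRP1 and ADAR, 2 of 6, stood below it in both (37.6% of genes), and the remaining 3 were above it in one library and below it in the other (30.7% of genes). Their median log2 fold change was 0.08, beside -0.05 for all genes tested. Each knockdown library was set against the same control, which moves both differences of a gene together. The differences had an SD over genes of 0.600 and 0.610 for the knockdown libraries against the control and 0.585 for one knockdown library against the other. The gap between knockdown libraries was 0.07 for ILF2, 0.39 for DHX9 and 0.64 for ADAR, and the median gap over genes tested was 0.34.

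**Figure D4:**
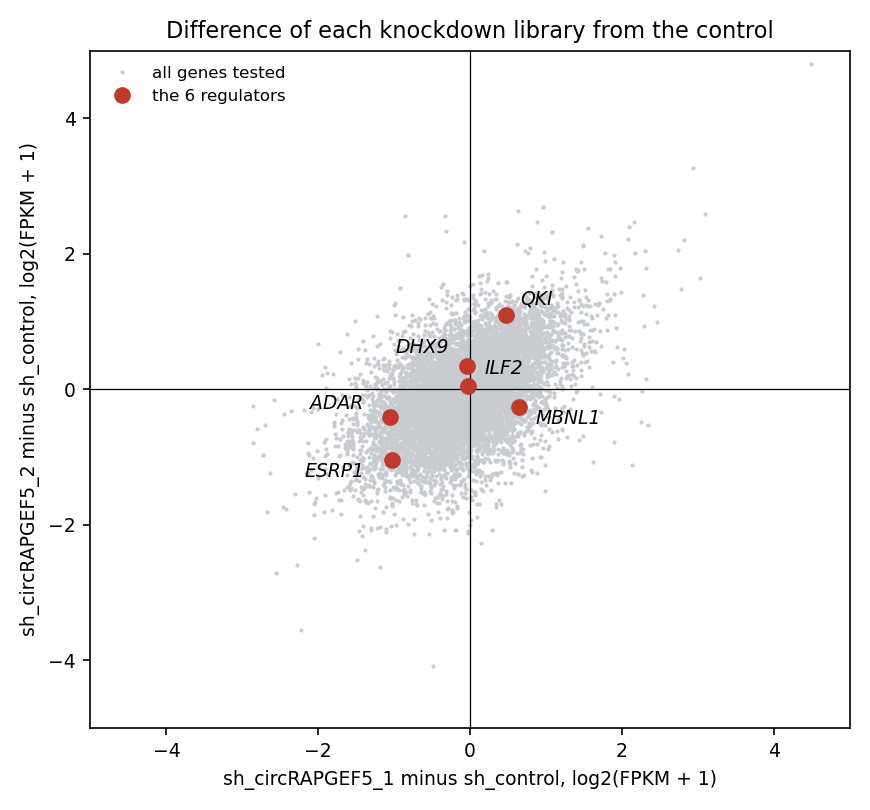
Difference of sh_circRAPGEF5_1 (x axis) and sh_circRAPGEF5_2 (y axis) from the control on the log2(FPKM + 1) scale. Grey points are the 11216 genes tested and red points the 6 regulators, of which ESRP1 and ADAR are lower in both, QKI is higher in both, and the others lie on opposite sides of 0.

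The other genes of circle biology were read from 7 lists, also chosen with earlier results of these data known. Of their 79 distinct tested genes, 0 passed limma's threshold. An unadjusted p under 0.05 was found for 3 of them (G3BP2, OAS3 and RBFOX2), which is 3.80%, beside 7.07% of all genes tested. Beside the counts of each list below, 31.7% of all genes tested were higher and 37.6% lower in both libraries. Of the 6 tested paralogs and partners, 1 was higher in both libraries, 4 were lower in both and 1 lay on both sides. The median log2 fold change of these 6 was -0.14. Of 10 tested RNA-binding proteins also reported to act on circle formation, 2 were higher and 2 lower in both libraries. Their median log2 fold change was 0.05, and -0.04 under quantile normalization. EIF4A3, a core subunit of the exon junction complex, was at 104 and 161 FPKM in the knockdown libraries, against 80.9 FPKM in the control (limma adjusted p 0.81). NOVA2, a splicing factor best known in neurons, was at 0.809 and 1.73 FPKM, against 3.31 FPKM (limma adjusted p 0.728). NONO, a paraspeckle protein, was at 261 and 217 FPKM, against 279 FPKM, and HNRNPM at 134 and 180.3 FPKM, against 126 FPKM.

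Of 14 tested genes for export, decay and protein partners of circles, 4 were higher and 1 was lower in both libraries, and the median was 0.10. G3BP2, a stress granule protein, was at 80.9 and 83.0 FPKM in the knockdown libraries, against 29.6 FPKM in the control. Its mean log2 fold change of 1.44 ± 0.39 (SE) had an unadjusted p of 0.00302 and a limma adjusted p of 0.478. XPO4, an export receptor, was at 8.15 and 8.72 FPKM, against 6.05 FPKM, and UPF1, the helicase of nonsense-mediated decay, at 36.9 and 42.8 FPKM, against 33.2 FPKM.

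Of 17 tested genes for binding or sensing of double-stranded RNA, 5 were higher and 5 lower in both, and the median was -0.09. DDX5, a nuclear helicase, was at 233 and 205 FPKM in the knockdown libraries, against 129 FPKM in the control (limma adjusted p 0.761). STAU1, which binds paired regions of transcripts, was at 50.3 and 58.8 FPKM, against 35.9 FPKM (limma adjusted p 0.816). In the CELF and RBFOX list, which holds splicing factors that act on the same exons as MBNL proteins or ESRP proteins, 3 genes were tested. RBFOX2 was at 20.8 and 17.0 FPKM in the knockdown libraries, against 40.2 FPKM in the control, on average a log2 difference of -1.06 ± 0.40 (SE), an unadjusted p of 0.0223 and a limma adjusted p of 0.625. CELF1 was at 24.0 and 25.3 FPKM, against 17.6 FPKM, and CELF6 at 1.999 and 0.751 FPKM, against 2.21 FPKM.

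SR proteins and hnRNP genes are the broad families of splicing factors. Over all genes tested, 31.7% were higher and 37.6% lower in both libraries, and 12.9% were at least 1.5-fold from the control in both. Of 12 SR proteins, 3 were higher and 5 lower in both, the median was -0.10, and 0 were at least 1.5-fold from the control in both. SRSF9 was at 171 and 188 FPKM in the knockdown libraries, against 117 FPKM in the control, and SRSF11 at 30.3 and 40.1 FPKM, against 47.7 FPKM. SRSF10 was at 16.6 and 19.2 FPKM, against 22.1 FPKM, and SRSF5 at 88.6 and 94.0 FPKM, against 106 FPKM. Of 19 hnRNP genes tested, 6 were higher and 9 lower in both, with a median of -0.09, and 0 were at least 1.5-fold from the control in both. HNRNPA1, which has many pseudogene copies and is uncertain, was at 384 and 357 FPKM in the knockdown libraries, against 519.9 FPKM in the control. HNRNPR was at 36.9 and 36.3 FPKM, against 47.7 FPKM, HNRNPLL at 9.75 and 8.92 FPKM, against 12.7 FPKM, and HNRNPF at 128 and 138 FPKM, against 108 FPKM.

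**Figure D5:**
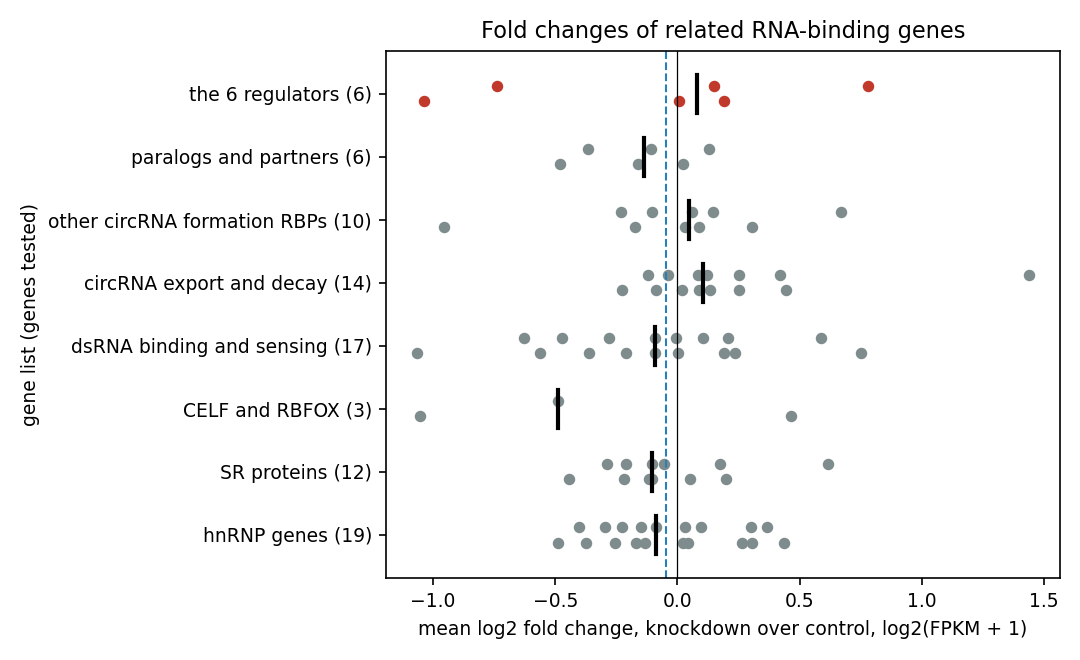
Mean log2 fold change of each tested gene, knockdown over control, by list, with the number of genes tested in brackets. Black bars are list medians and the dashed blue line is the median of all genes tested (-0.05). The regulators at the top spread from -1.04 (ESRP1) to 0.78 (QKI).

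For each regulator, the genes with the most similar pattern were taken by Euclidean distance over the 2 differences from the control, among tested genes with a mean FPKM of at least 5. This measure rests on 3 libraries that share 1 control, so many genes lie close. The genes nearest to ESRP1 were AIF1L and RAP2A, at distances of 0.03. AIF1L was at 9.80 and 9.93 FPKM in the knockdown libraries, against 21.5 FPKM in the control, and RAP2A, a RAP GTPase, at 5.94 and 6.12 FPKM, against 13.4 FPKM. Nearest to ADAR were PSIP1 and HADH, to QKI EBNA1BP2 and MFSD2A, to MBNL1 SLC30A6 and RRAGA, to DHX9 IFNGR2 and CHCHD5, and to ILF2 AKAP13 and ARHGAP5, with distances from 0.01 to 0.03.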

How the data were processed

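RNA of 3 HCT116 libraries was sequenced, 2 with shRNA against circRAPGEF5 and 1 with a control shRNA. Per the labels' protocols, a TRIzol and mirVana extraction was followed by TruSeq Stranded mRNA LT library preparation, which selects poly(A) RNA. The authors deposited FPKM values per gene, and the submitters' processing notes name Trimmomatic, HISAT2 and GRCh38.p13. Not given in the sources used here are their versions, the counter, its strand setting and the gene models. The authors deposited GO term names beside each gene, which are text (other values).

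Genes with a mean FPKM of at least 1 (11216 of 15625) were tested on log2(FPKM + 1) with limma 3.58.1 in R 4.3.3 (mean-variance trend, 1 residual and 10.92 prior degrees of freedom), and p-values were adjusted over all of them. The single control is assumed to have the spread of the knockdown pair. The fit was checked on simulated data in which the control had the same spread as the knockdown libraries, so that check cannot test this assumption. FPKM ratios were whole-number ratios within a relative tolerance of 1e-09 in 100% of genes once depth was removed. The smallest such reads served for counting intervals. True reads may be larger, and PCR copies are not independent, so intervals cover counting error only. Alternatives were other pseudocounts (0.1, 5), filters (none, mean FPKM of at least 5) and scalings (median-ratio, quantile), 3 other limma settings, and each knockdown library alone. Named were the 6 genes, their paralogs and partners, up to 4 genes of each other list, and by likeness 2 per gene. The members and lists were chosen with earlier results of these data known, and so were the gene pairs whose ratios are given and the GO terms. DDX58, EIF2AK2, DHX58, OAS1 and OAS2 were added to the genes named by that rule after their values were seen. RIGI was matched to the table as DDX58. ADARB2, RBFOX1 and 6 cell type markers were not analysed here, and some genes of the lists are not reported here by name.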

Additional observations from a re-analysis of the deposited data

How the results depend on the processing

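No paired analysis was possible because there is a single control library, whose labels carry no replicate number. Calls over all genes, 2 in the limma test, were 1 with a pseudocount of 5, without the trend and with robust fitting. Calls were 0 with no filter on low values (1089 genes with an unadjusted p under 0.05), with quantile normalization (738) and with the prior set to 5 degrees of freedom (543). Genes at least 1.5-fold from the control in both knockdown libraries numbered 1449 of 11216 tested. They numbered 1874 with a pseudocount of 0.1, 721 with a pseudocount of 5 and 1398 with quantile normalization. When only 1 knockdown library was used, 3294 to 3458 genes were at least 1.5-fold from the control. Of the 6 regulators, 1 was at least 1.5-fold in both, 2 with a pseudocount of 0.1 and with quantile normalization (QKI and ESRP1 in each), and 2 to 3 with 1 knockdown library. No regulator passed limma in any of the settings run, and no test could be made with 1 knockdown library against 1 control. The mean of ILF2 reversed to -0.16 with quantile normalization, and no other regulator's mean changed sign under the scalings and pseudocounts run. The filters and limma settings leave these means unchanged. The median of the 6 was 0.00603 with a mean FPKM of at least 5, which drops QKI, -0.058 with quantile normalization, and -0.109 to -0.0371 with 1 knockdown library. The median of SR proteins was -0.24 with quantile normalization. With 1 knockdown library, list medians ran from -0.13 to -0.0471 for paralogs and partners, 0.14 to 0.25 for export and decay, -0.020 to 0.0837 for double-stranded RNA genes, -0.107 to -0.0185 for SR proteins, -0.12 to 0.00119 for hnRNP genes, -0.13 to 0.22 for the other circle formation genes and -0.88 to -0.10 for CELF and RBFOX. Beyond fewer genes or libraries, the cause of these moves was not tested. The reads limit QKI most, and the single control limits every fold change.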

Other observations

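In the GO annotation deposited by the authors, all 6 regulators carry the term RNA binding, as do 1241 tested genes. Of these genes, 574 (46.3%) were higher and 333 (26.8%) lower in both knockdown libraries, beside 31.7% and 37.6% of all genes tested. Their median log2 fold change was 0.13 (0.07 in sh_circRAPGEF5_1 and 0.19 in sh_circRAPGEF5_2), beside -0.05 for all genes tested. With median-ratio rescaling it was 0.16, beside -0.009 for all genes tested, and with quantile normalization 0.08, beside 0.0099. None of the 1241 passed limma's threshold, and 82 (6.61%) had an unadjusted p under 0.05, beside 7.07% of all genes tested. Of the 6 regulators, QKI was higher in both, ESRP1 and ADAR were lower in both, and DHX9, ILF2 and MBNL1 lay on both sides of the control. ADAR, DHX9, ILF2 and MBNL1 also carry the term double-stranded RNA binding, where 20 of 58 tested genes were higher and 15 lower in both, with a median of 0.06. For regulation of RNA splicing, which MBNL1 and ESRP1 carry, 7 of 33 were higher and 12 lower in both, with a median of -0.02 that was 0.02 with median-ratio rescaling. QKI, MBNL1 and ESRP1 carry RNA splicing, where 62 of 139 were higher and 35 lower in both, with a median of 0.11. For mRNA processing, which QKI, ADAR, MBNL1 and ESRP1 carry, 59 of 130 were higher and 39 lower in both, with a median of 0.09.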
